A study of Mus musculus with 17 samples.

Results

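Type 1 conventional dendritic cells (cDC1s) from mouse spleen that had been cultured for 6 h with debris of necroptotic tumor cells were compared with cDC1s that had been cultured for 6 h with the medium of live tumor cells. The comparison uses 6 of the 17 samples of the series, 3 per group, which were chosen by their labels alone, and all 19513 genes with a nonzero count in at least 50% of the 9 cDC1 samples. In the RIPK3 group, the cDC1s had received the uncleared medium of TC-1-iRIPK3 cells, with dead cells, debris and soluble material. TC-1 is a mouse lung tumor line, and TC-1-iRIPK3 is a clonal subline in which the inducer cumate switches on a self-oligomerizing form of the kinase RIPK3 and thereby necroptosis. In the WT group, the medium came from unmodified TC-1 cells that had also been given cumate, so that the inducer was common to both groups, but a trait of the clone cannot be told apart from the death of its cells. A further 3 cDC1 samples share the fit, in which the debris came from TC-1-iBimS cells, a subline that cumate drives into apoptosis through the protein BimS. The cDC1s of all groups came from spleens of C57BL/6JRj mice that carried a B16 melanoma secreting FLT3 ligand, and spleens of several mice were pooled. The cells were enriched by CD11c, were cultured together with type 2 cells (cDC2s), and were sorted afterwards as XCR1 and CD8α positive and SIRPα negative. The debris carried no dye and the sort did not use its uptake. A sample may therefore hold cells that took up debris and cells that did not. The labels number the samples of a group 1 to 3 without saying whether these are separate pools of mice, so that p-values measure the spread between these samples, which may be technical.

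cDC1s are the dendritic cells that are best known for presenting material of dead cells to CD8+ T cells. Necroptosis is a lytic form of cell death in which RIPK3 activates the pore-forming protein MLKL, and the cell content is released. A cell that ingests such a corpse takes in heme, iron, lipids, nucleotides and proteins. Heme and electrophiles release the transcription factor NRF2 from KEAP1 and the target genes of NRF2 from the repressor BACH1, which raises enzymes for heme breakdown, glutathione synthesis and peroxide removal. Type I interferons act through factors that bind interferon-stimulated response elements and induce antiviral genes, and dendritic cells express many of these genes at rest.

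At an adjusted p under 0.05, 3226 genes differed between the groups, which is 16.5% of the genes tested. Of these, 1628 (8.34%) were higher with RIPK3 debris and 1598 (8.19%) were lower. Most differences were small, with a median absolute log2 fold change of 0.41 among the called genes, and 473 genes changed by more than 1 on the log2 scale, 321 upwards and 152 downwards. In 3119 of the called genes the 3 RIPK3 samples and the 3 WT samples did not overlap. Among all genes tested, called or not, 2908 were higher with RIPK3 debris without overlap and 2935 were lower without overlap. Many genes that were not called were thus also without overlap, so that the count among called genes is no separate evidence for the calls. The median over all genes tested was -0.0056 on the log2 scale. Every adjusted p given here for RIPK3 against WT comes from the quasi-likelihood test of edgeR with Benjamini-Hochberg adjustment over all genes tested, and levels are counts scaled to library size (CPM) as mean ± SD with n = 3 per group. In limma on log2(count + 1) without normalization, the transform named in the study's methods, the median of all genes was -0.12 and the split was 768 higher to 1981 lower, so that small rises were not called there.

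**Figure D1:**
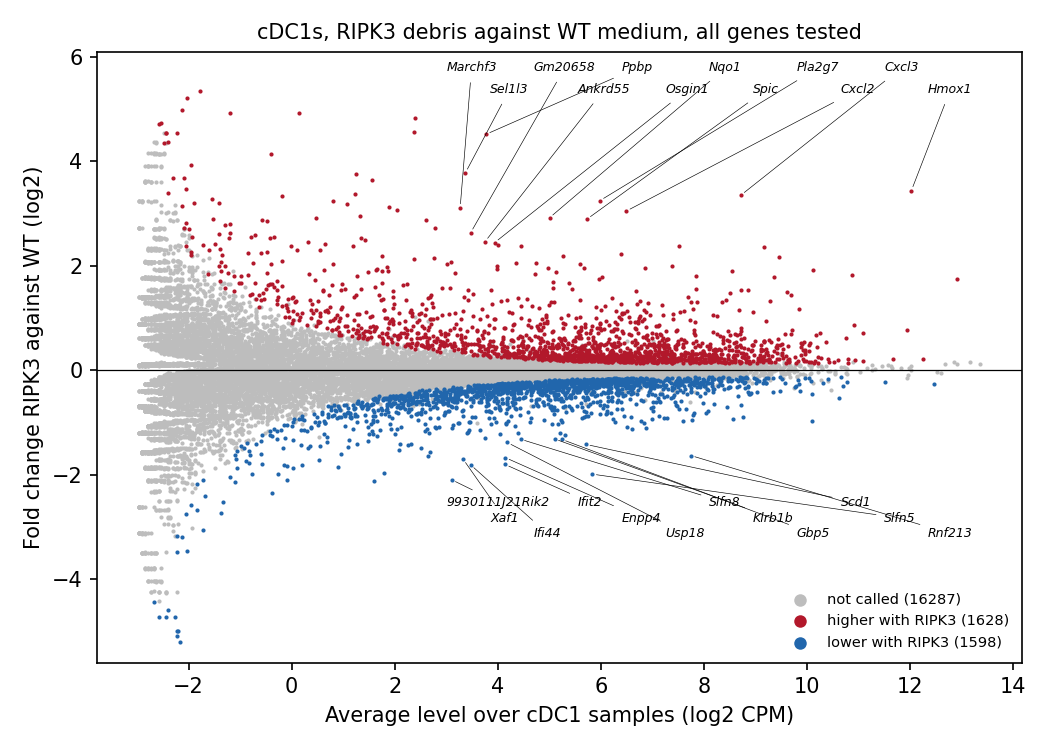
Each point is a gene, with its average level over the cDC1 samples (log2 CPM) on the x axis and its log2 fold change of RIPK3 debris against WT medium on the y axis. The 1628 genes called higher are red, the 1598 called lower are blue, and the genes with the 12 largest rises and falls at an average of at least 3 are named.

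The libraries held between 18986002 and 21410901 counts in the WT group and between 17556976 and 20460653 in the RIPK3 group. On the first principal component of these 6 samples, which held 94.2% of the variance, no sample of a group lay near the other group. Mitochondrial genes took 0.821% to 0.908% of the counts with WT and 0.939% to 0.959% with RIPK3, and the part of this difference in the results was not tested. The 28 cDC1 identity genes summed to between 5743 and 6019 CPM in the WT samples and between 5303 and 5385 CPM in the RIPK3 samples. The 14 genes listed for cDC2s summed to between 90.6 and 107 CPM in the WT samples and between 83.5 and 107 CPM in the RIPK3 samples, nearly all of it from Clec12a, and their defining marker Sirpa was at 1.44 ± 0.390 and 1.49 ± 0.718 CPM. Of the 13 that were tested 2 were higher and none was lower. These were Esam, at 0.150, 0.255 and 0.361 CPM with WT and 1.88, 0.906 and 1.33 CPM with RIPK3, and Tarm1, which had no count with WT and a mean of 0.135 CPM with RIPK3, whose groups overlapped. Genes of adherent tumor or stromal cells summed to between 23.2 and 25.2 CPM in the WT samples and between 25.1 and 28.8 CPM in the RIPK3 samples. Of 20 tested 1 was higher, Cald1 (from 0.161 to 0.572 CPM), and none was lower. Thbs1 went from 2.41 to 4.12 CPM (adjusted p = 0.0701) and S100a6 from 8.08 to 6.32 CPM (adjusted p = 0.0510). With the replicate block 2 of the list were higher, Cald1 and Thbs1 (adjusted p = 0.000318), and 1 lower, S100a6 (adjusted p = 0.0199). The marked members were near 0 in both groups, with Krt8 at 0.0491 and 0.103 CPM and Col1a1 at 0.0974 and 0.0722 CPM, except Krt18 (0.979 and 0.771 CPM). Clec12a, Esam, Tarm1, Cald1, Thbs1 and S100a6 were named after their values were seen. Ripk3, which the dying line overexpresses, was measured at 22.5, 26.7 and 23.6 CPM in the WT samples and at 27.2, 27.99 and 33.0 CPM in the RIPK3 samples (log2 fold change 0.28, SE 0.0816, adjusted p = 0.0146). This rise was small and was not called without WT replicate 1, WT replicate 3 or RIPK3 replicate 3 (adjusted p = 0.105, 0.0638 and 0.127), nor without normalization. In bulk RNA, fewer cells of a type and less RNA per cell cannot be told apart.

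Among genes with an average log2 CPM of at least 3, the 12 largest rises included 3 chemokines and several enzymes. Ppbp, a platelet-type CXC chemokine that is cleaved to a neutrophil attractant, was at 0.900, 0.562 and 0.947 CPM in the WT samples and at 21.4, 15.7 and 18.8 CPM in the RIPK3 samples (ENSMUSG00000029372, chromosome 5 from 90916371 to 90917930 of GRCm39; log2 fold change 4.51, SE 0.175, adjusted p = 4.70e-19). Hmox1, the heme oxygenase that opens the heme ring, was at 571, 687 and 607 CPM with WT and at 6548, 6626 and 7024 CPM with RIPK3, a 10.8-fold rise (ENSMUSG00000005413, chromosome 8 from 75820241 to 75827217; log2 fold change 3.44, SE 0.0559, adjusted p = 3.88e-28). The largest rises and falls were chosen among genes whose groups did not overlap. Sel1l3 lay between these genes in size, at 1.30, 1.74 and 0.947 CPM with WT and 19.3, 14.8 and 20.3 CPM with RIPK3 (log2 fold change 3.78, SE 0.168, adjusted p = 2.08e-17). The chemokines were joined by Cxcl3 and Cxcl2 and the enzymes by Nqo1, which are described with their groups, and by Pla2g7, the secreted hydrolase of platelet-activating factor (from 10.2 ± 0.919 to 96.7 ± 17.1 CPM). Marchf3, a ubiquitin ligase of membrane proteins, rose from 1.96 ± 0.350 to 16.9 ± 3.01 CPM, and Spic, a transcription factor of heme-recycling macrophages, from 7.86 ± 1.25 to 58.7 ± 7.57 CPM. The remaining rises of this size were those of Osgin1, an NRF2 target (from 3.84 to 20.9 CPM), Ankrd55 (from 3.44 to 18.9 CPM) and Gm20658 (from 2.46 to 15.3 CPM).

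The largest falls at such levels were mostly those of interferon-stimulated genes. Slfn5, a Schlafen family member, was at 96.7, 88.2 and 95.0 CPM in the WT samples and at 26.6, 18.4 and 25.6 CPM in the RIPK3 samples (ENSMUSG00000054404, chromosome 11 from 82842100 to 82855666; log2 fold change -1.99, SE 0.161, adjusted p = 9.995e-05). Rnf213, a large interferon-induced ubiquitin ligase, went from 349.9 ± 18.1 to 113 ± 20.2 CPM (log2 fold change -1.64, SE 0.127, adjusted p = 7.52e-05). The groups of both genes were far apart. Of the other interferon-induced genes among the 12 largest falls, Ifi44 went from 18.4 to 5.28 CPM, Xaf1 from 16.1 to 4.99 CPM and the GTPase gene 9930111J21Rik2 from 14.5 to 3.43 CPM, and Ifit2, Usp18, Gbp5 and Slfn8 are described with their groups. The falls outside this group were those of Klrb1b, a lectin receptor gene (from 52.7 to 21.1 CPM), Enpp4, a nucleotide phosphodiesterase gene, and Scd1, the gene of the desaturase that makes oleic acid.

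**Figure D2:**
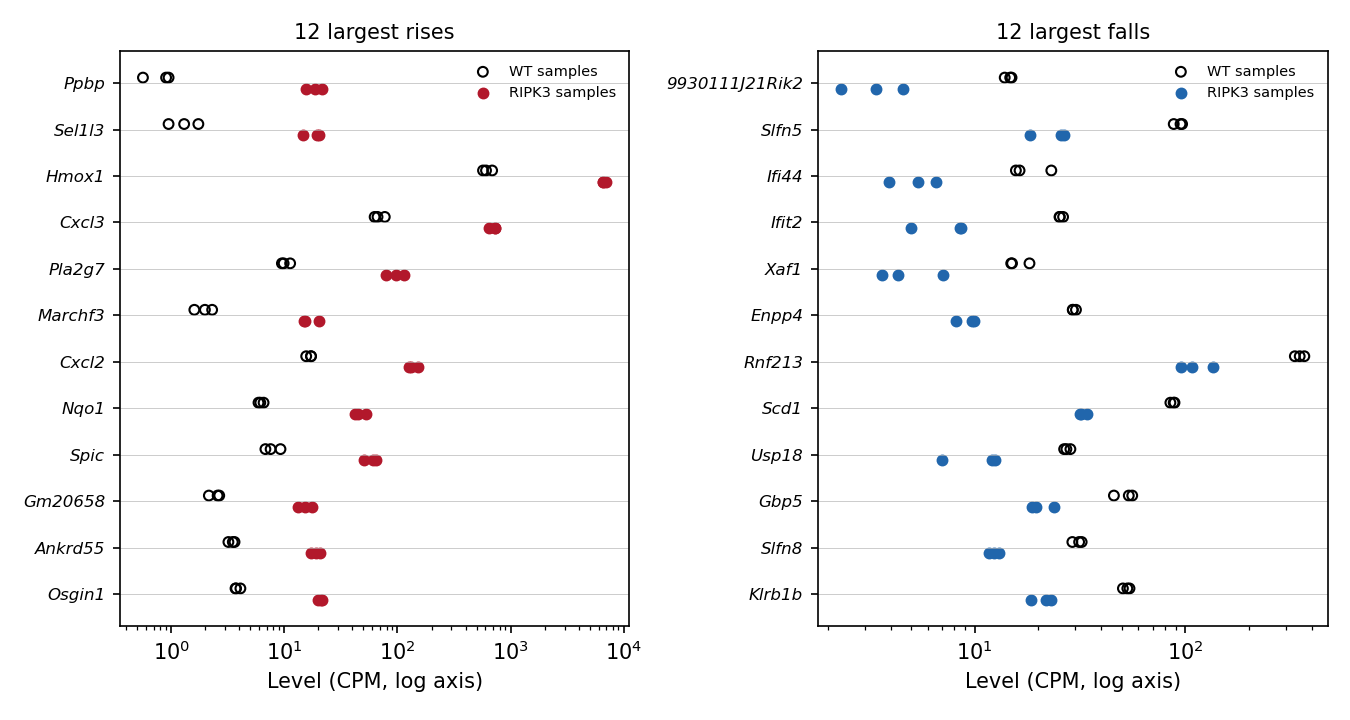
CPM of the genes with the 12 largest rises (left) and the 12 largest falls (right) on a logarithmic x axis, with 1 point per sample, WT open and RIPK3 filled. Genes were chosen among those without overlap between the groups, and Ppbp lies between 0.562 and 0.947 CPM with WT and between 15.7 and 21.4 CPM with RIPK3.

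Spic and Ppbp also stand on marker lists of other cells, whose levels were as follows. The 11 platelet genes summed to between 7.35 and 9.09 CPM in the WT samples and between 24.5 and 32.4 CPM in the RIPK3 samples. The increase lay in Ppbp and its neighbor Pf4 (from 0.388 to 3.07 CPM), since Itga2b was at 4.79 and 4.40 CPM. Gp6 had no count in any of the 6 samples, which allows up to 0.173 CPM (3 counts in the smallest library), and Gp9 had at most 0.051 CPM. The 16 macrophage and monocyte genes summed to between 96.5 and 107 CPM in the WT samples and between 148 and 161 CPM in the RIPK3 samples. Of these 2 were higher, Spic and Ccr2 (from 3.82 to 6.15 CPM), and 1 was lower, Fcgr1 (from 5.02 to 1.15 CPM). The call of Ccr2 was lost without RIPK3 replicate 2 (adjusted p = 0.0607), and Fcgr1 was named after its values were seen. Most of the increase in the sum was that of Spic. Adgre1, the gene of F4/80, was at 1.12 ± 0.217 and 0.900 ± 0.0887 CPM and C1qa at 0.422 ± 0.338 and 0.416 ± 0.251 CPM. The 14 T and NK cell genes summed to between 123 and 148 CPM in the WT samples and between 72.6 and 106 CPM in the RIPK3 samples. This was almost wholly Il7r, which was at 131 ± 14.5 and 87.7 ± 16.9 CPM (adjusted p = 0.0693, and 4.92e-21 with the replicate number as a block). Cd3e was at or below 0.357 CPM in every sample. What other cells contributed to the results was not tested.

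Of 20 tested genes of heme breakdown and iron storage 11 (55%) were higher with RIPK3 debris (8.34% of all genes tested were) and 1 (5%) was lower, with a median of 0.46 on the log2 scale. This median was 0.75 without WT replicate 2 and 0.30 without normalization. The share in parentheses after a list's count is to be read against 8.34% higher and 8.19% lower among all genes tested. Blvrb, which reduces biliverdin, was at 24.3, 27.4 and 25.1 CPM in the WT samples and at 124, 109.9 and 125 CPM in the RIPK3 samples (log2 fold change 2.22, SE 0.0715, adjusted p = 2.97e-20). Slc48a1, which carries heme out of the phagolysosome, rose from 59.5 ± 0.999 to 237 ± 14.6 CPM (log2 fold change 1.99, SE 0.0531, adjusted p = 8.54e-26). Fth1, the heavy chain of ferritin, which stores the iron that heme oxygenase frees, was at 3118, 3101 and 3370.3 CPM with WT and 10541, 9828 and 11857 CPM with RIPK3 (log2 fold change 1.75, SE 0.0751, adjusted p = 3.00e-09). Slc40a1, the iron exporter ferroportin, rose from 0.245 to 2.55 CPM on few counts. Tfrc, the transferrin receptor, stood at 5.37 ± 0.409 and 6.67 ± 0.731 CPM (adjusted p = 0.143). The single fall was that of the ferritin receptor gene Ncoa4, from 18.9 to 15.6 CPM, and it was not called without WT replicate 1, WT replicate 2 or RIPK3 replicate 1 (adjusted p = 0.103, 0.0779 and 0.0600).

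Of 22 genes for cystine uptake and glutathione 8 (36.4%) were higher and 1 (4.55%) was lower, with a median of 0.41, which was 0.18 without WT replicate 2 and 0.29 without normalization. Gclm, the regulatory subunit of the enzyme that joins glutamate and cysteine, was at 209, 235 and 231 CPM with WT and at 1029.7, 981 and 1019 CPM with RIPK3 (log2 fold change 2.17, SE 0.0499, adjusted p = 1.12e-27). Its catalytic partner Gclc went from 166 ± 11.0 to 423 ± 6.65 CPM (log2 fold change 1.35, SE 0.0540, adjusted p = 2.85e-20). Gsr, which regenerates glutathione, rose from 40.0 ± 1.09 to 154 ± 3.75 CPM. Slc7a11, the cystine transporter, was at 364, 391 and 338 CPM with WT and 1074, 1104 and 915 CPM with RIPK3 (log2 fold change 1.501, SE 0.0706, adjusted p = 1.81e-10). Its heavy chain Slc3a2 went from 577 to 800.3 CPM. In each of these genes the lowest RIPK3 sample was above the highest WT sample. Of the glutathione peroxidases, Gpx1 fell from 111 ± 8.14 to 66.3 ± 5.88 CPM (log2 fold change -0.74, SE 0.0625, adjusted p = 2.22e-11). Gpx4, which removes lipid peroxides, stood at 44.2 ± 2.36 and 49.6 ± 2.53 CPM, with an adjusted p of 0.103, and of 0.0211 with the block.

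In the thioredoxin and peroxiredoxin list 13 (54.2%) of 24 members were higher and none was lower (median 0.38). Prdx1, a peroxide-removing enzyme, was at 166, 163 and 175 CPM in the WT samples and at 854, 788 and 954 CPM in the RIPK3 samples (log2 fold change 2.36, SE 0.0914, adjusted p = 1.02e-08). Srxn1, which repairs oxidized peroxiredoxins, rose from 419 ± 15.2 to 1585 ± 77.0 CPM (log2 fold change 1.92, SE 0.0474, adjusted p = 8.29e-27). Prdx6, which repairs oxidized phospholipids, rose from 34.0 ± 1.49 to 62.9 ± 2.79 CPM. Nqo1, the quinone reductase among the 12 largest rises, was at 6.55, 6.13 and 5.90 CPM with WT and 53.002, 42.5 and 44.8 CPM with RIPK3 (log2 fold change 2.92, SE 0.121, adjusted p = 3.19e-12). Txnrd1, the thioredoxin reductase, went from 1256 ± 49.3 to 2294 ± 77.0 CPM. Txnip, an inhibitor of thioredoxin, was at 153 ± 10.8 and 148 ± 12.3 CPM (adjusted p = 0.737). Of the 9 genes of NADPH supply, 4 (44.4%) were higher, namely Me1 (from 0.962 to 4.43 CPM), Pgd (from 204 to 588 CPM), G6pdx (from 179 to 366 CPM) and Taldo1 (from 839 to 1328 CPM). Idh1 was lower (from 4.92 to 3.32 CPM), a call that was lost without WT replicate 1, WT replicate 2, RIPK3 replicate 1 or RIPK3 replicate 3 (adjusted p = 0.106, 0.0716, 0.0695 and 0.148).

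Among the regulators of this response the gene of NRF2 itself, Nfe2l2, did not pass the test, at 479.9, 489 and 478 CPM with WT and 471, 495 and 489 CPM with RIPK3 (adjusted p = 0.949). Of 11 such genes, with the partners and inhibitors of NRF2, 6 (54.5%) were higher and none was lower. Mafg, a small MAF partner, went from 169 ± 7.52 to 416 ± 13.6 CPM (log2 fold change 1.30, SE 0.0489, adjusted p = 2.10e-21). The repressor gene Bach1 rose from 318 ± 15.4 to 487 ± 45.5 CPM and Keap1 from 72.1 to 97.4 CPM. Sqstm1, which encodes the autophagy receptor p62 that sequesters KEAP1, rose from 2668 ± 20.3 to 4526 ± 167 CPM. Of 13 genes of metallothioneins and zinc transport 5 (38.5%) were higher and 3 (23.1%) lower, and 3 were higher without WT replicate 3, without RIPK3 replicate 1 or without normalization. Slc30a1, the zinc exporter of the plasma membrane, rose from 7.51 ± 1.19 to 18.9 ± 1.22 CPM, while Mt2 was at 1.52 and 1.36 CPM (adjusted p = 0.808).

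NRF2 binds antioxidant response elements, and the letters TGACNNNGC or TGAGNNNGC were searched on both strands from 250 bases before to 50 after the start of each gene. They were found in 15 of the 36 promoters of the antioxidant, heme and NADPH genes called higher (41.7%) and in 28.3% of the promoters of all genes tested, so that these letters are common. They were also in 33.8% of the promoters of all genes called higher and in 28.9% of those called lower. Hmox1 and Gclm are shown because they carry the letters in the 120 bases before the gene start, which no annotated exon touches. The sequences are from GRCm39, 5′ to 3′ along the gene's strand, with the letters, or their complement on the other strand, in capitals.

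Hmox1 (chr8:75820121-75820240, plus strand): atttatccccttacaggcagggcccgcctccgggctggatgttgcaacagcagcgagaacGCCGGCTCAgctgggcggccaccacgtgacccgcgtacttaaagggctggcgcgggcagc
Gclm (chr3:122039006-122039125, plus strand): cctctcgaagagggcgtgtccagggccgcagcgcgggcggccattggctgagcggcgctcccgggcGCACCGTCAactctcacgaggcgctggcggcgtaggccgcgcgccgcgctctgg

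Type I interferon-stimulated genes were lower with RIPK3 debris in 32 (68.1%) of 47 tested members, and 1 (2.13%) was higher, against 8.19% lower among all genes. The median of the list was -0.84 on the log2 scale. Of the IFIT family, whose proteins bind foreign RNA, Ifit2 was at 25.4, 26.3 and 25.3 CPM in the WT samples and at 8.58, 4.98 and 8.54 CPM in the RIPK3 samples (log2 fold change -1.81, SE 0.237, adjusted p = 0.00147). Ifit3 and Ifit1 had fewer counts and fell from 1.79 to 0.664 CPM and from 2.86 to 1.13 CPM. Usp18, the protease that removes ISG15 and dampens the interferon receptor, was at 28.5, 26.6 and 27.3 CPM with WT and 12.1, 7.00 and 12.5 CPM with RIPK3 (log2 fold change -1.39, SE 0.242, adjusted p = 0.00784). The groups did not overlap in any of these genes. Oas3, a sensor of double-stranded RNA, fell from 20.9 ± 2.47 to 10.6 ± 1.53 CPM, Mx1, a GTPase that traps viral nucleoproteins, from 22.1 ± 1.52 to 14.4 ± 3.03 CPM, and Slfn8 from 30.9 ± 1.61 to 12.3 ± 0.667 CPM.

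In 28 of the 32 interferon-stimulated genes called lower, RIPK3 replicate 2 was the lowest sample. Without it, 30 members were called lower, and without RIPK3 replicate 1 and 3 the counts were 30 and 38. With the replicate block 38 were lower. Some well-known members had calls that changed with single samples. Isg15 (from 24.95 to 16.2 CPM) was not called without WT replicate 1, WT replicate 2, WT replicate 3 or RIPK3 replicate 1 (adjusted p = 0.136, 0.0588, 0.151 and 0.167). Rsad2, the antiviral enzyme viperin (from 16.8 to 11.5 CPM), was not called without WT replicate 3 (adjusted p = 0.0544). The 1 member that was higher, Oasl1 (from 367 to 515 CPM), encodes a repressor of the interferon response. It was not called without WT replicate 1, WT replicate 2, RIPK3 replicate 1 or RIPK3 replicate 3 (adjusted p = 0.117, 0.125, 0.0863 and 0.0664), nor in the fit of the 6 samples alone.

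Of the interferon-γ-inducible GTPases and related genes, 10 (43.5%) of 23 were lower and 2 (8.70%) were higher. This list also holds interferon receptors and their JAK kinases. Gbp5, a guanylate-binding protein that attacks the membranes of pathogens, was at 56.0, 45.8 and 54.0 CPM with WT and 23.8, 18.7 and 19.6 CPM with RIPK3 (log2 fold change -1.33, SE 0.106, adjusted p = 1.77e-07). Gbp2 fell from 13.5 ± 1.69 to 7.27 ± 0.696 CPM, Gbp7 from 7.65 to 2.74 CPM and Gbp3 from 10.4 to 4.82 CPM. Irgm1, a regulator of autophagy, fell from 50.2 ± 4.24 to 25.9 ± 5.14 CPM, and Cxcl9, which attracts T cells, from 60.5 ± 0.751 to 40.8 ± 3.75 CPM. Irf1, the factor that interferon-γ induces, moved the other way, from 181 ± 4.89 to 245 ± 8.41 CPM (log2 fold change 0.44, SE 0.0518, adjusted p = 2.83e-08). So did Socs1, the feedback inhibitor of JAK kinases, from 37.1 to 49.1 CPM, although its rise was not called without normalization.

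**Figure D3:**
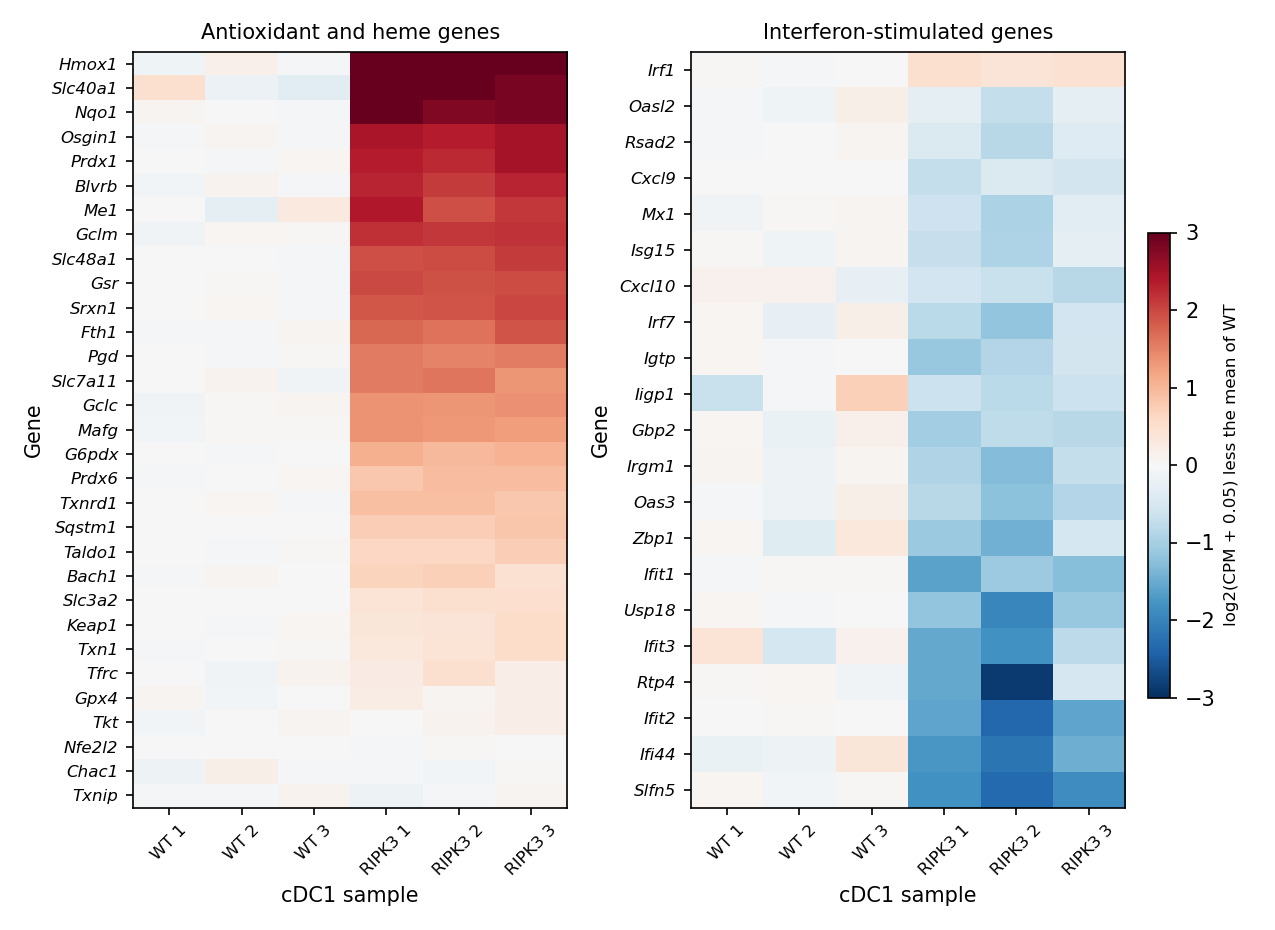
log2(CPM + 0.05) of each cDC1 sample less the mean of the 3 WT samples, for marked antioxidant and heme genes (left) and interferon-stimulated genes (right) whatever their call, red for higher and blue for lower, with full color at 3 and beyond. Hmox1 leads the left panel and Nfe2l2 stays pale, and in the right panel Irf1 is the one gene above WT and RIPK3 replicate 2 is the darkest column for most genes.

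The interferon-stimulated response element was searched as its core GAAANNGAA, on both strands of the same 300 bases. A match says only that the letters are there. The core was found in 17 of the 32 promoters of interferon-stimulated genes called lower (53.1%), in 8 of the 10 of the interferon-γ list called lower (80%) and in 8.7% of all promoters. It was also in 10.2% of the promoters of all genes called lower and in 7.21% of those called higher. Ifit1 and Ifit3 each held 3 copies. Shown are Oas3 and Slfn8, which fell with RIPK3 debris and carry the core in the 120 bases before the gene start, where no exon is annotated. Build, direction and capitals are as above.

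Oas3 (chr5:120915730-120915849, minus strand): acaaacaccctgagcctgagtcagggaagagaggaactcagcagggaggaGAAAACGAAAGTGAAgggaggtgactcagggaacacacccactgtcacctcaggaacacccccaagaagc
Slfn8 (chr11:82911670-82911789, minus strand): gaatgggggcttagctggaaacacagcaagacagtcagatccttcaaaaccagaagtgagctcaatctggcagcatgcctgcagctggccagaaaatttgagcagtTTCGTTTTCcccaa

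Among 21 chemokine genes tested, 6 (28.6%) were higher and 4 (19.05%) were lower. All of the higher ones but Ccl3 belong to the cluster of CXC chemokines on chromosome 5 that attract neutrophils or come from platelets. Cxcl3 was at 77.2, 66.6 and 62.8 CPM in the WT samples and at 734, 650.3 and 723 CPM in the RIPK3 samples (ENSMUSG00000029379, chromosome 5 from 90933962 to 90937459; log2 fold change 3.35, SE 0.121, adjusted p = 2.81e-07). Cxcl2 was at 17.2, 17.2 and 15.6 CPM with WT and 152, 133 and 127 CPM with RIPK3 (log2 fold change 3.05, SE 0.0868, adjusted p = 1.28e-15). Cxcl5 rose from 0.292 to 7.02 CPM and Pf4 from 0.388 to 3.07 CPM, while Cxcl1 of the same cluster had at most 3 counts in each of the 6 samples. Ccl3, which attracts monocytes and T cells, rose from 0.738 to 2.18 CPM. The lower ones, which also attract T cells, were Cxcl9 and Cxcl10 (from 8.44 to 5.18 CPM), both interferon-induced, the membrane-bound Cx3cl1 (from 10.1 to 3.38 CPM) and Ccl22. Ccl22, which attracts regulatory T cells, was at 187, 121 and 165 CPM with WT and 88.3, 60.3 and 87.4 CPM with RIPK3 (adjusted p = 0.0485). Its call was lost without WT replicate 1, WT replicate 3, RIPK3 replicate 1, RIPK3 replicate 2 or RIPK3 replicate 3 (adjusted p = 0.147, 0.137, 0.0902, 0.136 and 0.0877). It was also lost without a filter, in limma on log2 CPM and in the fit of the 6 samples. Cxcl16 was at 806 ± 34.7 and 777 ± 44.998 CPM (adjusted p = 0.586) and Ccl5 at 20.2 ± 1.66 and 22.5 ± 4.01 CPM (adjusted p = 0.481).

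Of 16 chemokine receptor genes 3 (18.8%) were higher and 3 (18.8%) lower. Ccr7, which guides dendritic cells to lymph nodes, fell: it was at 603, 535 and 518 CPM with WT and 378, 317 and 341 CPM with RIPK3 (log2 fold change -0.68, SE 0.113, adjusted p = 0.00505). Gpr183, which positions dendritic cells along oxysterol gradients, fell from 9.56 ± 2.59 to 4.42 ± 1.07 CPM and Cxcr4 from 140.5 ± 6.82 to 113 ± 2.66 CPM. Xcr1, the receptor that defines cDC1s, rose from 153 ± 6.55 to 227 ± 13.2 CPM (log2 fold change 0.57, SE 0.0515, adjusted p = 5.67e-11).

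Most cytokine genes did not pass the test, with 4 of 37 higher (10.8%) and 3 lower (8.11%), close to the shares of all genes. The 3 higher ones with the largest rise were growth factors and a member of the IL-6 family. Areg, an EGF receptor ligand, was at 1.55, 2.09 and 1.49 CPM in the WT samples and 5.13, 6.44 and 4.56 CPM in the RIPK3 samples (log2 fold change 1.66, SE 0.222, adjusted p = 1.15e-06). Pgf, a VEGF family member, rose from 1.91 to 4.87 CPM and Osm, the IL-6 family member, from 3.23 to 5.27 CPM. Il16, Pdgfb and Tnfsf9, the ligand of 4-1BB, fell from 18.5 to 8.35 CPM, from 11.3 to 6.88 CPM and from 4.31 to 2.53 CPM. Il1b, the gene of an inflammasome substrate, was at 3643, 3706 and 3593 CPM with WT and 3607, 3797 and 3906 CPM with RIPK3 (log2 fold change of 0.048, adjusted p = 0.555). Il6 was at 60.9 ± 3.90 and 61.5 ± 4.47 CPM (adjusted p = 0.935) and Tnf at 3.64 ± 0.718 and 4.09 ± 0.964 CPM (adjusted p = 0.686). Il12b, the p40 chain of IL-12, was at 13.5 ± 1.24 and 17.7 ± 5.85 CPM (adjusted p = 0.437, and 0.0141 with the replicate block). Il12a and Il27 did not exceed 3 counts in any of the 6 samples, so that no fold is given for them.

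Of 34 cytokine receptor genes 5 were higher (14.7%, against 8.34% of all genes) and 7 lower (20.6%, against 8.19%). Kit, the stem cell factor receptor, was at 520.1, 524 and 513 CPM with WT and 279, 283 and 251 CPM with RIPK3 (log2 fold change -0.94, SE 0.0508, adjusted p = 8.10e-17). Il21r rose from 38.1 ± 4.41 to 88.2 ± 12.1 CPM (log2 fold change 1.21, SE 0.151, adjusted p = 0.00115). Il4ra, the shared chain of the IL-4 and IL-13 receptors, rose from 318 ± 3.22 to 456 ± 7.37 CPM. Flt3, the receptor of the growth factor that expands dendritic cells, went from 202 ± 18.8 to 142 ± 15.3 CPM (log2 fold change -0.51, SE 0.0940, adjusted p = 0.00347). This fall was not called without RIPK3 replicate 3 (adjusted p = 0.0683).

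Of 36 maturation genes 11 were lower (30.6%, against 8.19% of all genes) and 3 higher (8.33%, against 8.34%), and with the replicate block 12 to 5. Cd80, a ligand of CD28, was at 261, 286 and 251 CPM in the WT samples and 205, 226 and 210.0 CPM in the RIPK3 samples (log2 fold change -0.32, SE 0.0556, adjusted p = 5.18e-05). Its relative Cd86 was at 898 ± 8.31 and 876 ± 37.1 CPM (adjusted p = 0.699). Cd83, which stabilizes MHC class II and CD86 at the surface, was at 1936, 1966 and 1868 CPM with WT and 1474, 1588 and 1587 CPM with RIPK3 (log2 fold change -0.31, SE 0.0460, adjusted p = 2.27e-06). Cd40 fell from 113 ± 5.77 to 91.0 ± 7.11 CPM and Icosl, the ligand of ICOS, from 56.4 ± 0.267 to 34.0 ± 2.00 CPM. Aldh1a2, which makes retinoic acid, fell from 10.8 to 5.10 CPM. Cd274, the gene of the inhibitory ligand PD-L1, rose from 897 ± 25.6 to 1152 ± 105 CPM (log2 fold change 0.36, SE 0.0504, adjusted p = 1.05e-06), a call that was lost without normalization at a log2 fold change of 0.24. Pdcd1lg2, that of PD-L2, was at 265 ± 2.94 and 268 ± 8.07 CPM. The study measured CD80, CD86, CD40 and CCR7 as surface proteins. It reported them as higher on cDC1s that had engulfed debris than on those that had not, which is a different comparison.

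Of the MHC class II genes, H2-Ab1 was at 7094 ± 426 and 7941 ± 855 CPM and Cd74, the invariant chain, at 9986 ± 271 and 10893 ± 783 CPM. Their adjusted p was 0.177 and 0.0563, and with the replicate block, which compares samples of the same number, 7.38e-05 and 0.00161. In the MHC class II list 2 of 16 members were higher (12.5%, against 8.34% of all genes) and 2 lower (12.5%, against 8.19%), shares near those of all genes, and with the block 7 and 5. With no filter 5 were higher. Without RIPK3 replicate 1, 6 were higher, and without RIPK3 replicate 3, 4 were lower. Cd9, a tetraspanin, rose from 266 ± 13.7 to 381 ± 27.8 CPM and Ifi30, the thiol reductase of the lysosome, fell from 136 ± 1.56 to 116 ± 0.824 CPM. Of the 25 genes for class I and cross-presentation 5 (20%) were higher and 4 (16%) lower, and without normalization 1 was higher and 4 lower. Without WT replicate 1 these were 1 and 2. The number of higher members was 2 without WT replicate 2 and 3 without RIPK3 replicate 3. The number of lower members was 2 without WT replicate 3 or without RIPK3 replicate 2. Nlrc5, the transactivator of class I genes, fell from 102 ± 4.45 to 72.8 ± 4.68 CPM (log2 fold change -0.48, SE 0.0590, adjusted p = 5.59e-08). Wdfy4, which cDC1s need for the presentation of cell-associated antigen, was at 590.2, 554 and 651 CPM with WT and 465, 448 and 438 CPM with RIPK3 (log2 fold change -0.41, SE 0.0559, adjusted p = 2.18e-06).

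Of 28 genes of cDC1 identity, 13 (46.4%) were lower and 5 (17.9%) higher, with the replicate block 13 and 8, and without normalization 3 were higher. Irf8, the factor that cDC1s depend on, was at 316, 280.4 and 335 CPM in the WT samples and at 176, 168 and 185 CPM in the RIPK3 samples (ENSMUSG00000041515, chromosome 8 from 121463096 to 121485659; log2 fold change -0.82, SE 0.0566, adjusted p = 4.09e-13). The groups did not overlap. Its partner Batf3 was at 58.7 ± 4.42 and 60.3 ± 2.69 CPM (adjusted p = 0.814), and Id2 rose from 518 ± 19.5 to 657 ± 22.5 CPM. Zeb2, which opposes the cDC1 fate and is counted in this list among its higher members, rose from 7.68 ± 0.864 to 19.4 ± 2.89 CPM (log2 fold change 1.34, SE 0.107, adjusted p = 5.76e-12). Itgae, the gene of CD103, fell from 44.2 ± 4.03 to 24.7 ± 0.952 CPM (log2 fold change -0.84, SE 0.0762, adjusted p = 6.92e-11). Snx22 fell from 27.1 to 13.9 CPM and Gcsam from 111 to 58.5 CPM. Clec9a, the receptor for actin exposed by dead cells, rose from 242 ± 11.6 to 286 ± 9.70 CPM (log2 fold change 0.24, SE 0.0487, adjusted p = 0.000302). Cd8a rose from 12.6 ± 0.540 to 18.6 ± 3.47 CPM. The rises of Clec9a and Id2 were not called without normalization. The sort used XCR1 and CD8α, so that the levels of Xcr1 and Cd8a are those of cells selected for their proteins.

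**Figure D4:**
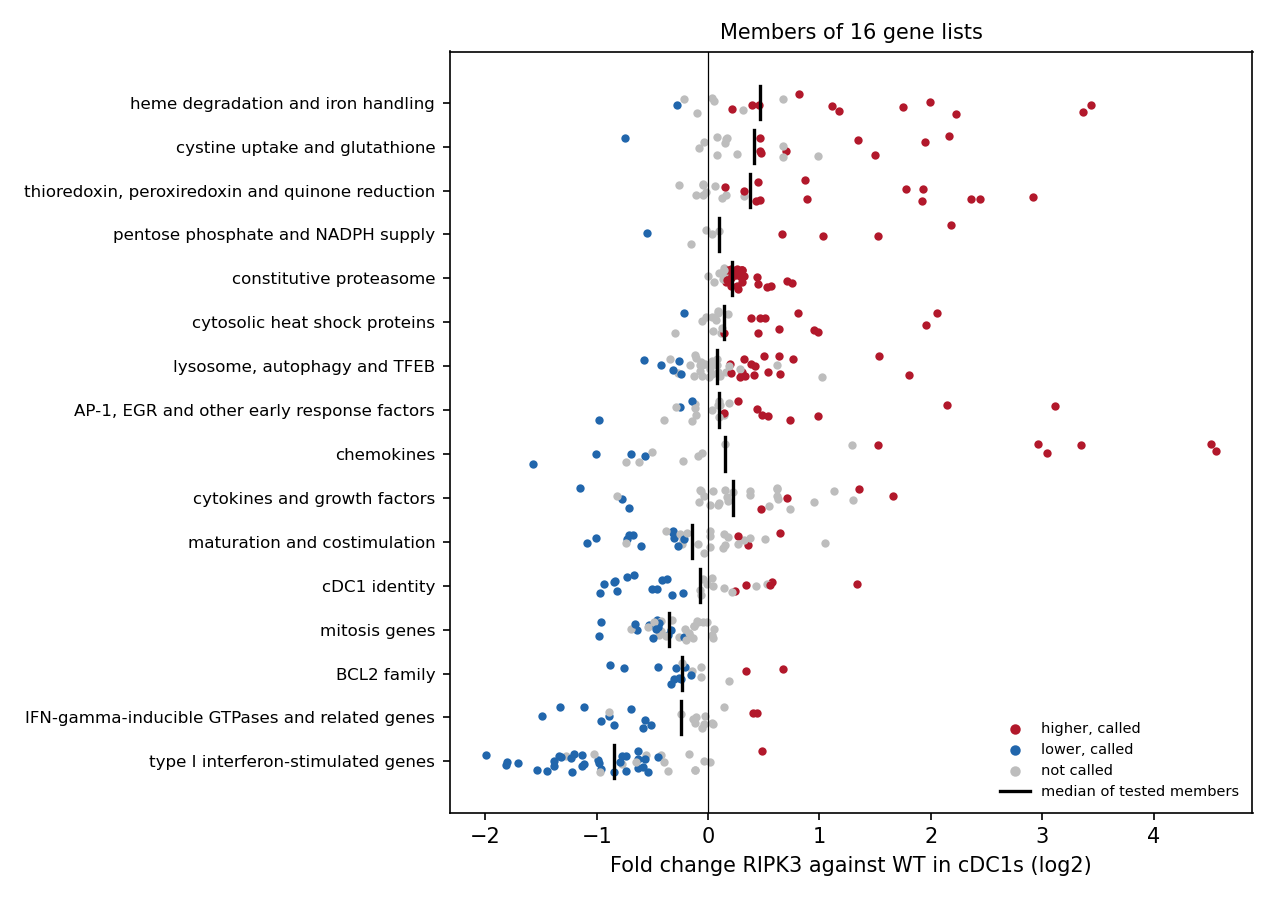
log2 fold change of RIPK3 debris against WT medium (x axis) for the members of 16 gene lists (y axis), with 1 point per gene, colored by the call, and a black bar at the median of the members tested. Members with at most 3 counts in every sample of a group are not drawn. The interferon lists and the mitosis genes lie to the left of 0, the heme and thioredoxin lists and the proteasome to the right.

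Of 23 cytosolic heat shock genes 11 (47.8%) were higher and 1 (4.35%) was lower. Hspa1b was at 13.7, 8.17 and 11.4 CPM with WT and 58.6, 38.7 and 40.9 CPM with RIPK3 (log2 fold change 2.05, SE 0.293, adjusted p = 0.00374). Its near-identical neighbor Hspa1a was at 13.9 ± 3.75 and 54.2 ± 11.6 CPM, and reads may be split between them. Hsph1 rose from 75.0 ± 5.42 to 145 ± 7.05 CPM, Dnajb1 from 48.5 ± 2.09 to 67.1 ± 6.27 CPM and Bag3 from 44.8 ± 1.27 to 63.9 ± 1.95 CPM. The constitutive Hspa8 fell from 2104 ± 107 to 1807 ± 148 CPM (log2 fold change -0.22, SE 0.0502, adjusted p = 0.00147). Of 30 genes of the integrated stress response 12 (40%) were higher and 2 (6.67%) lower, and 7 were higher without normalization. The lower ones were Nupr1 and Atf5. The call of Atf5 was lost without WT replicate 1, RIPK3 replicate 1 or RIPK3 replicate 2. It was also lost with DESeq2, in limma on log2 CPM and in the fit of the 6 samples. Atf3 was at 71.8, 74.7 and 71.4 CPM with WT and 149, 169.6 and 167 CPM with RIPK3 (log2 fold change 1.15, SE 0.0543, adjusted p = 1.37e-18), and Cebpb rose from 27.2 ± 3.38 to 91.3 ± 4.75 CPM. Atf4 itself stood at 679.8 ± 3.82 and 685 ± 42.02 CPM, Ddit3, the gene of CHOP, at 34.3 ± 0.0758 and 35.5 ± 0.814 CPM and Asns at 70.4 ± 2.50 and 71.8 ± 5.96 CPM, none of which passed the test. Slc7a11 and Ddit4, which are also targets of ATF4, were among the higher members. Of 22 genes of endoplasmic reticulum chaperones and the unfolded protein response 10 (45.5%) were higher, with Hspa5 from 1256 ± 36.9 to 1454 ± 62.2 CPM, and 2 (9.09%) were lower, the sensor gene Atf6 (from 276 to 229.6 CPM) and Xbp1 (from 348 to 315 CPM). The call of Xbp1 was lost without WT replicate 1, WT replicate 3, RIPK3 replicate 1 or RIPK3 replicate 2 (adjusted p = 0.0856, 0.196, 0.102 and 0.0838) and in the fit of the 6 samples. Without normalization only Sel1l3 was called higher and only Atf6 lower.

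Factors of the early response were higher in 9 (36%) of 25 members and lower in 3 (12%). Fosl1 was at 0.900, 0.562 and 0.541 CPM in the WT samples and 6.04, 5.94 and 5.43 CPM in the RIPK3 samples (log2 fold change 3.12, SE 0.212, adjusted p = 3.99e-14). Egr2 was at 2.10, 2.14 and 2.03 CPM with WT and 9.49, 9.52 and 8.78 CPM with RIPK3 (log2 fold change 2.15, SE 0.146, adjusted p = 3.83e-14). Jun rose from 36.9 ± 1.28 to 61.5 ± 1.89 CPM and Fos from 116 ± 4.295 to 157 ± 6.24 CPM. Nr4a3, an orphan nuclear receptor that is tied to dendritic cell migration, fell instead, from 1624, 1515 and 1446 CPM to 815, 771 and 737 CPM (log2 fold change -0.98, SE 0.0487, adjusted p = 6.37e-18). Of 25 genes of the NF-κB pathway 7 (28%) were lower, among them Rel (from 991 to 799 CPM), Nfkb1 (from 1225 to 1054 CPM), Tnfaip3 (from 118 to 98.1 CPM) and Tnip3 (from 52.3 to 26.2 CPM). Higher were 2 (8%), and 6 with the replicate block and 6 without RIPK3 replicate 3. Traf4, an adaptor of TNF receptors, led them, at 46.2, 47.7 and 42.5 CPM with WT and 79.5, 82.3 and 83.3 CPM with RIPK3 (log2 fold change 0.85, SE 0.0610, adjusted p = 1.94e-13).

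Of 33 subunits of the constitutive proteasome 25 (75.8%) were higher and none was lower, with a median of 0.21 against -0.0056 for all genes, and with the replicate block 30 were higher. Psmc1, an ATPase of the base, was at 259, 253 and 251 CPM with WT and 412, 412 and 459.8 CPM with RIPK3 (log2 fold change 0.75, SE 0.0494, adjusted p = 1.73e-14). Psma5 rose from 63.3 ± 2.36 to 104 ± 3.65 CPM and Psmd1 from 189 ± 5.32 to 273 ± 5.95 CPM. Without normalization 6 subunits were called and the median was 0.093, which is still above the median of all genes in that fit. The immunoproteasome subunit Psmb8 was at 319.6 ± 11.6 and 319.9 ± 23.5 CPM (adjusted p = 0.994). Nuclear-encoded subunits of the respiratory chain and ATP synthase were higher in 2 of 46 members and lower in none (4.35%, below the share of all genes), and with the block 5 were higher.

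Lysosome and autophagy genes were higher in 16 (32%) of 50 members and lower in 5 (10%). Lipa, the acid lipase that frees cholesterol from ingested esters, was at 82.4, 88.6 and 90.1 CPM with WT and 311, 286 and 314 CPM with RIPK3 (log2 fold change 1.80, SE 0.0572, adjusted p = 7.92e-23). Mitf, a factor for lysosomal genes, rose from 7.21 ± 0.515 to 20.9 ± 2.30 CPM (log2 fold change 1.54, SE 0.102, adjusted p = 1.85e-14). The proton pump subunit Atp6v1h rose from 63.8 ± 0.938 to 92.6 ± 2.78 CPM. Lamp1 and Ctsb did not pass the test at 128 ± 8.63 and 122 ± 5.16 CPM and at 149 ± 5.06 and 151 ± 10.2 CPM. Mitf is also listed for melanoma cells, whose 6 genes summed to between 7.20 and 8.20 CPM in the WT samples and between 18.4 and 22.9 CPM in the RIPK3 samples, nearly all of it from Mitf, with Pmel at 0.225 and 0.219 CPM. Ctsl, a cysteine protease, fell from 5.88 to 3.93 CPM and Gusb from 141 ± 9.21 to 105 ± 5.62 CPM.

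Of 31 genes of fatty acids and lipid droplets 5 (16.1%) were higher and 9 (29.0%) lower. Mgll, which hydrolyzes monoacylglycerols, was at 0.400, 0.408 and 0.225 CPM with WT and 9.14, 11.1 and 9.35 CPM with RIPK3 (log2 fold change 4.83, SE 0.218, adjusted p = 4.58e-19). Cd36, a scavenger receptor and fatty acid carrier, rose from 1326 ± 89.2 to 2024 ± 93.7 CPM (log2 fold change 0.61, SE 0.0483, adjusted p = 2.16e-12). Ppard, a fatty acid sensor, rose from 85.2 ± 1.57 to 151 ± 2.46 CPM. The desaturases fell, Scd1 from 89.0, 88.1 and 85.1 CPM to 32.1, 34.1 and 31.5 CPM (log2 fold change -1.42, SE 0.0640, adjusted p = 4.04e-19). Scd2 fell from 24.3 ± 0.927 to 13.9 ± 0.458 CPM. Of 15 LXR targets and genes of cholesterol efflux 6 (40%) were higher and 2 (13.3%) lower. The transporter gene Abcg1 fell from 141 ± 8.13 to 76.0 ± 3.42 CPM (log2 fold change -0.90, SE 0.0577, adjusted p = 8.88e-15). Abca1 was at 35.8, 37.9 and 30.9 CPM with WT and 20.6, 22.9 and 16.5 CPM with RIPK3 (adjusted p = 0.0112). Its fall was not called without WT replicate 1 or RIPK3 replicate 1 (adjusted p = 0.0524 and 0.0654). Higher were Soat1, which esterifies cholesterol (from 65.9 ± 0.721 to 127 ± 7.44 CPM), Mylip, which marks the LDL receptor for degradation (from 64.9 to 113 CPM), and Npc1, which exports cholesterol from the lysosome (from 48.8 to 65.1 CPM). Of the SREBP2 targets 5 (19.2%) of 26 were higher. Hmgcs1 was at 62.0 ± 4.93 and 66.0 ± 8.32 CPM (adjusted p = 0.696). In glycolysis 9 (36%) of 25 members were higher and 4 (16%) lower, and 5 and 4 without normalization. Hk2 rose from 54.5 ± 4.49 to 91.5 ± 11.0 CPM and Aldoa from 525 ± 7.64 to 789 ± 15.5 CPM, and Ldha fell from 208 ± 6.87 to 171 ± 11.8 CPM.

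Mitosis genes were lower in 13 (36.1%) of 36 members, with none higher and a median of -0.35. Mki67 was at 103, 109.8 and 122 CPM in the WT samples and 78.0, 81.4 and 84.8 CPM in the RIPK3 samples (log2 fold change -0.45, SE 0.0776, adjusted p = 0.000331). Cenpf fell from 4.19 to 2.13 CPM and Hmmr from 4.02 to 2.09 CPM. The count was 7 without WT replicate 3, 8 without RIPK3 replicate 1 and 7 without RIPK3 replicate 2. Of the S phase genes 2 of 36 were lower (5.56%, below the share of all genes). This count was 9 with the replicate block, 10 without normalization, 6 with no filter, 9 without RIPK3 replicate 3, 1 without WT replicate 2 and 0 without WT replicate 3 or RIPK3 replicate 1. Mcm5 was at 40.7 ± 4.82 and 43.0 ± 6.13 CPM (adjusted p = 0.749).

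Of 17 BCL2 family genes, which set the threshold for apoptosis, 10 (58.8%) were lower and 2 (11.8%) higher. The falls included protectors and killers alike. Mcl1, a protector, was at 1005, 997 and 976 CPM with WT and 809, 793 and 766 CPM with RIPK3 (log2 fold change -0.33, SE 0.0437, adjusted p = 2.81e-07). Bcl2a1b fell from 8.64 to 5.15 CPM, though reads of the near-identical Bcl2a1 copies may be split. Bbc3, the gene of the killer PUMA, fell from 69.5 ± 2.71 to 50.9 ± 6.26 CPM and Bcl2l11, that of BIM, from 1324 ± 33.4 to 1118 ± 64.6 CPM (log2 fold change -0.24, SE 0.0457, adjusted p = 0.000111). Bcl2l14 fell from 122 ± 3.10 to 66.4 ± 3.87 CPM. The higher ones were the protector Bcl2 (from 1.98 ± 0.284 to 3.16 ± 0.413 CPM; log2 fold change 0.68, SE 0.202, adjusted p = 0.0161) and the killer Bax (from 34.3 ± 1.74 to 43.3 ± 1.70 CPM). Without normalization neither was called, at log2 fold changes of 0.54 and 0.22. The call of Bcl2 was also lost without WT replicate 1, WT replicate 3 or RIPK3 replicate 2 (adjusted p = 0.0834, 0.0645 and 0.119). Among 26 genes of necroptosis, death receptors and inflammasomes 6 (23.1%) were higher and 2 (7.69%) lower. Ninj1, which ruptures the membrane of dying cells, rose from 123 ± 2.34 to 206 ± 8.07 CPM (log2 fold change 0.74, SE 0.0502, adjusted p = 3.19e-14). Gsdme rose from 3.54 to 8.15 CPM and Tnfrsf10b from 3.18 to 6.50 CPM. The protease gene Casp8 was at 181 ± 6.80 and 176 ± 7.76 CPM (adjusted p = 0.686) and Mlkl at 0.805 ± 0.265 and 1.14 ± 0.118 CPM (adjusted p = 0.344). The count of lower members was 1 without WT replicate 1 or 3, and 4 with the replicate block.

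Of 39 genes of receptors and bridges for dying cells 7 were higher and 7 lower, 17.9% each way. Timd4, a phosphatidylserine receptor, was at 58.8, 55.8 and 55.0 CPM with WT and 24.8, 26.2 and 20.8 CPM with RIPK3 (log2 fold change -1.23, SE 0.0816, adjusted p = 1.80e-12). Its relative Havcr1 fell from 15.5 to 6.68 CPM and Cd300lf from 1.45 to 0.397 CPM. Cd300a, an inhibitory receptor for the same lipid, rose from 39.1 ± 1.66 to 67.9 ± 1.41 CPM (log2 fold change 0.80, SE 0.0590, adjusted p = 3.77e-13). Of the sensors of microbes and nucleic acids 7 (23.3%) of 30 were lower and 2 (6.67%) higher, and with the replicate block 10 and 4. Without WT replicate 2, 1 was higher. Sting1, the adaptor of cytosolic DNA sensing, fell from 67.9 ± 1.06 to 39.3 ± 2.38 CPM (log2 fold change -0.79, SE 0.0620, adjusted p = 1.71e-12). The others included Cgas (from 14.3 to 10.1 CPM), Tlr9 (from 69.9 to 51.0 CPM) and Tlr11 (from 11.3 to 6.88 CPM). Clec4d, a lectin receptor, rose from 21.8 ± 2.29 to 45.3 ± 1.71 CPM.

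In the signaling by extracellular nucleotides 7 (35%) of 20 genes were lower and 3 (15%) higher. Entpd1, the ectoenzyme CD39 that degrades ATP, was at 73.5, 79.2 and 83.0 CPM with WT and 168, 202 and 188 CPM with RIPK3 (log2 fold change 1.24, SE 0.0644, adjusted p = 3.55e-14). Enpp4 fell from 29.2, 30.3 and 29.3 CPM to 8.17, 9.92 and 9.70 CPM (log2 fold change -1.68, SE 0.0916, adjusted p = 9.82e-17). P2ry14, the receptor of UDP-glucose, fell from 69.8 ± 4.46 to 43.4 ± 3.31 CPM. Of 19 genes of prostaglandins and leukotrienes 7 (36.8%) were higher and 3 (15.8%) lower. Ptgs2, the inducible cyclooxygenase, and Pla2g4a, which supplies its substrate, rose from 0.659 to 2.73 CPM and from 1.62 to 4.37 CPM. Of the receptors of prostaglandin E2, Ptger2 rose from 12.2 ± 1.69 to 22.4 ± 2.09 CPM and Ptger4 fell from 92.0 ± 9.44 to 51.7 ± 4.27 CPM (log2 fold change -0.83, SE 0.0985, adjusted p = 6.28e-05).

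Among phosphoinositide enzymes 9 (23.1%) of 39 were higher and 11 (28.2%) lower. Pik3cb, a catalytic subunit of PI3-kinase, was at 49.0, 44.4 and 44.3 CPM in the WT samples and 119, 108 and 104 CPM in the RIPK3 samples (log2 fold change 1.26, SE 0.0592, adjusted p = 1.33e-18), and the leukocyte form Pik3cd fell from 263 ± 12.6 to 215 ± 21.6 CPM (log2 fold change -0.29, SE 0.0587, adjusted p = 0.000611). The phosphatase genes Inpp5d and Inpp1 rose from 552 ± 11.6 to 894 ± 22.6 CPM and from 37.1 ± 1.79 to 57.5 ± 0.928 CPM. Of the cytoskeleton and adhesion genes 16 (36.4%) of 44 were higher and 6 (13.6%) lower. Vcl, the focal adhesion protein vinculin, rose from 48.8 ± 6.62 to 104 ± 21.5 CPM (log2 fold change 1.09, SE 0.183, adjusted p = 0.00753). Pdlim7 rose from 36.9 ± 2.56 to 58.5 ± 3.11 CPM and Itga5 from 87.0 ± 1.98 to 124 ± 5.88 CPM. Actb fell from 6044 ± 277 to 5020.2 ± 239 CPM and Itga4 from 119.7 ± 4.59 to 81.7 ± 5.36 CPM. Of 18 genes of semaphorins and their receptors 5 (27.8%) were higher and 3 (16.7%) lower. Sema4f rose from 70.2 ± 4.36 to 144 ± 10.8 CPM and Sema4a fell from 81.7 ± 6.89 to 45.8 ± 1.61 CPM. Of 29 Notch and WNT genes 7 (24.1%) were higher and 6 (20.7%) lower, and 4 were higher without WT replicate 1 or RIPK3 replicate 2 and 3 without normalization. Jag1, a Notch ligand, was at 11.7, 12.6 and 11.7 CPM with WT and 46.9, 43.1 and 42.3 CPM with RIPK3 (log2 fold change 1.88, SE 0.0743, adjusted p = 1.03e-20). Of 31 genes of TGF-β and BMP signaling 3 (9.68%) were higher and 5 (16.1%) lower, and 5 were higher without RIPK3 replicate 3. Acvrl1, a BMP receptor, rose from 136 ± 1.31 to 266 ± 5.22 CPM and Id3, a BMP target, fell from 34.0 ± 1.95 to 17.1 ± 0.795 CPM (log2 fold change -0.99, SE 0.0762, adjusted p = 1.02e-12).

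Of the 27 tested genes that the study's text names for necroptotic debris, 16 (59.3%, against 8.34% of all genes) were higher against WT and none was lower. Against BimS debris 13 of the 27 were higher and none was lower. The study chose them on these samples, so that their direction is not independent evidence. Among the higher ones were Clasp2, a microtubule stabilizer (from 106 to 148 CPM), and Pi4k2a, a kinase of phosphatidylinositol (from 182 to 261 CPM). Wwtr1, Bcl6b and Tppp had at most 3 counts in every WT sample.

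Whether the response belongs to necroptotic debris can be asked against cDC1s given BimS debris, n = 3, in the same fit. Between the debris types 810 genes differed (4.15%), and 1730 with the replicate block. Of the 3226 genes that differed from WT, 531 also differed from BimS, 236 above both other media and 262 below both. The contrasts share the RIPK3 samples, so that their overlap is no result. Tiparp, a target of the aryl hydrocarbon receptor, was at 63.0, 58.4 and 58.2 CPM with WT, 183 CPM on average with BimS and 318, 321 and 291 CPM with RIPK3 (log2 difference from BimS 0.76, adjusted p = 1.17e-12). Of the called genes that also differed from WT and had an average log2 CPM of 3 or more, the largest excesses besides this one were those of Traf4 (0.93), Map9 (0.88), Ddit4 (0.82), an inhibitor of mTORC1, and Tex14 (0.81). Traf4 was at 45.5 CPM on average with WT and 42.9 CPM with BimS, Ddit4 at 8.69 and 8.24 CPM and Tex14 at 6.83 and 6.56 CPM, so that their means with BimS lay just below those with WT. Among the same genes Ifit2 had the largest deficit (19.3 CPM with BimS, -1.39, adjusted p = 0.0247), followed by Sema4d (-1.28), Slfn5 (-1.18), Gbp3 (-1.10) and 9930111J21Rik2 (-1.10). By list, 14 of 47 interferon-stimulated genes were lower than with BimS. Higher were 15 of 30 genes of the integrated stress response and 8 of 23 heat shock genes. None of these lists had members called the other way, and 4.15% of all genes differed in either direction. Of 20 heme genes 2 were higher and 1 lower, and of 22 glutathione genes 2 and 1. In the thioredoxin list 4 of 24 were higher and none lower. None of the 9 NADPH genes and none of the 11 NRF2 regulators differed. Hmox1 was also above its BimS level (5160.4 CPM, 0.38, adjusted p = 1.02e-05), but Ppbp was not (21.6 CPM, -0.21, adjusted p = 0.328), nor was Nqo1 (43.6 CPM, 0.10, adjusted p = 0.708).

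Whether cDC2s responded alike was tested as the interaction of cell type and medium over all 17 samples, in which cDC2s with RIPK3 debris are 2 samples. It was called for 217 genes (1.14%), and for 449 with the replicate block. In the first of these fits, of the genes called in cDC1s 155 had a different response, 108 more positive and 47 more negative in cDC1s. Ankrd55 rose in cDC1s from 3.50, 3.62 and 3.20 CPM to 17.1, 20.6 and 19.1 CPM, against a log2 fold change of -0.0004 in cDC2s (interaction 2.45, adjusted p = 2.45e-06). Marchf3, with 1.599, 2.30 and 1.98 CPM with WT and 15.0, 20.3 and 15.3 CPM with RIPK3 in cDC1s, had a fold change of 0.58 in cDC2s (interaction 2.51, adjusted p = 3.20e-05). In the thioredoxin list 5 of 24 members had the more positive response in cDC1s and in the glutathione list 4 of 22, while 1 of the latter, Glrx, had the more negative one (interaction -0.81, adjusted p = 0.0270), a gene named after its values were seen. Among those with the more positive response were Srxn1 of the thioredoxin list (interaction 1.02, adjusted p = 2.20e-06) and Gclm of the glutathione list (0.64, adjusted p = 0.000867). In the heme list the count was 1, and Hmox1 had an interaction of -0.70 (adjusted p = 0.0963). Of the 47 interferon-stimulated genes 6 had the more positive response in cDC1s, among them Mx1 (cDC2 fold change of -1.62, interaction 0.99, adjusted p = 0.0270), and none the more negative. Irf8 fell in cDC1s and had a fold change of 0.47 (adjusted p = 0.0823) in cDC2s, an interaction of -1.30 (adjusted p = 0.000265).

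**Figure D5:**
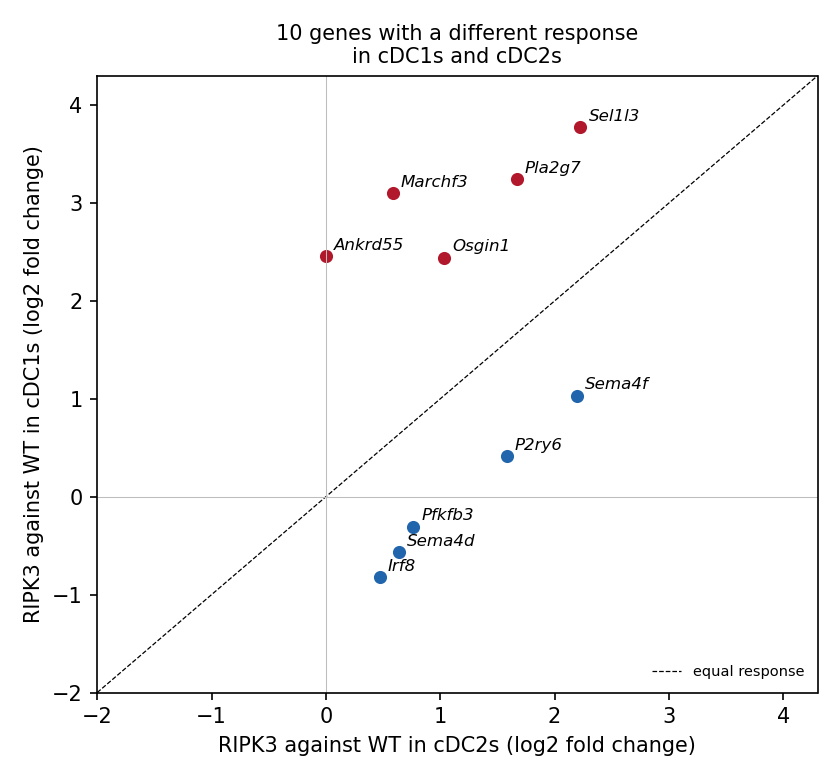
log2 fold change of RIPK3 debris against WT medium in cDC2s (x axis) and cDC1s (y axis) for the 10 genes with the largest interactions of cell type and medium, 5 in each direction, among those also called in cDC1s at an average log2 CPM of at least 3, red where the cDC1 response is the more positive. The dashed line marks equal responses, and Ankrd55 lies at 2.46 in cDC1s and near 0 in cDC2s.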

How the data were processed

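The authors enriched polyadenylated RNA of sorted cDC1s and cDC2s, sequenced it as paired ends, trimmed the reads with SeqPurge, aligned them to GRCm39 with STAR 2.7.10a, and deposited raw counts per Ensembl gene, made with gensum, for 17 samples. The strand setting of the counting is not given in the sources used here, so that overlapping genes and near-identical copies may share reads. The authors also deposited log2 values of these counts, which were not used. The raw count of each column was taken as it stands, and lines without a gene identifier (148 of 31239, 0.0258% to 0.0366% of the counts) were left out. Of 31091 identifiers, 30854 matched the GENCODE annotation, from which symbols and coordinates come.

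The comparison was fitted with edgeR 4.0.16 in R 4.3.3 (robust quasi-likelihood test, TMM normalization) over the 9 cDC1 samples, with genes that were nonzero in at least 50% of them, and p-values were adjusted by Benjamini-Hochberg over all genes. CPM use the TMM-scaled library sizes. RIPK3 against BimS was tested in the same fit, and the interaction with cell type in a fit of all 17 samples, with 19082 genes. SE is that of the log2 fold change. On simulated counts with 200 changed genes, run 5 times, the fit of this comparison recovered 92.8% of them, and 12.3% of the calls were false.

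Members of all gene lists were chosen with earlier results of these data known. The text names the 12 largest rises and falls among called genes without overlap between groups that have an average log2 CPM of at least 3, marked members of each list whatever their values, the 3 largest called rises and falls per list at an average of at least 1, the genes the study names, and the 5 largest differences each way from BimS and in the interaction among genes called there and against WT at an average of at least 3. The text gives values for part of the 544 genes that this rule picks, and list counts include all tested members. Counts of up to 3 in every sample of a group are treated as the floor, which covers counting error only.

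Samples with the same number deviated together: over 7882 genes the correlation of their deviations from the group means was 0.185 to 0.409 in the 3 same-number pairs of WT and RIPK3 and -0.245 to -0.0034 in the 6 others. The numbers were therefore taken to pair the samples, from the data and not from the labels, and a fit with the replicate number as a block was run. Alternatives were DESeq2 1.42.0, RLE size factors, edgeR's filterByExpr or no filter on low counts, limma 3.58.1 on log2(count + 1) or on log2 CPM, the 6 samples alone, the block, and the omission of each sample. Promoter sequences were cut from the GRCm39 genome, at the start of each gene's canonical Ensembl transcript in the GENCODE annotation. Of the 19513 genes, 19424 had one.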

Additional observations from a re-analysis of the deposited data

Results flagged for a closer look

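The response to RIPK3 debris differed between cDC1s and cDC2s, by the interaction test of edgeR with Benjamini-Hochberg adjustment over 19082 genes, for 155 of the genes called in cDC1s. The 5 largest differences in each direction among those with an average log2 CPM of at least 3 are given here. More positive in cDC1s were the responses of Marchf3 (interaction 2.51, from 3.11 in cDC1s and 0.58 in cDC2s on the log2 scale), Ankrd55 (2.45, from 2.46 and -0.0004), Pla2g7 (1.57, from 3.25 and 1.67), Sel1l3 (1.54, from 3.78 and 2.23) and Osgin1 (1.40, from 2.44 and 1.04). More negative in cDC1s were those of Pfkfb3, which drives glycolysis (-1.07, from -0.30 and 0.76), P2ry6, a receptor of UDP (-1.18, from 0.41 and 1.58), Sema4f (-1.18, from 1.03 and 2.20), Sema4d (-1.21, from -0.57 and 0.64) and Irf8 (-1.30, from -0.82 and 0.47). The adjusted p ranged from 3.86e-07 for Pfkfb3 to 0.0202 for Pla2g7. In cDC2s the estimates rest on 2 samples with RIPK3 debris, and the cell types differ in their baseline levels, whose part in these differences was not tested. The rise of P2ry6 in cDC1s was not called without normalization.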

How the results depend on the processing

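The number of genes called (3226) stayed within 1.5 times under 9 of the alternatives and each omission of a sample: 2882 with DESeq2, 3230 with RLE size factors, 3324 with filterByExpr, 3366 with no filter, 2749 with limma on log2(count + 1), 3145 with limma on log2 CPM, 3142 with the 6 samples alone, 4098 with the replicate block, 3914 with the block and the 6 samples, and 2531 to 3314 when each sample was left out. Leaving out single samples gave 1303 to 1704 genes higher, 1172 to 1610 lower and 420 to 503 beyond 1 on the log2 scale. With an unadjusted p, 5127 genes passed, 2493 higher and 2634 lower, and 864 beyond 1. In limma on log2(count + 1) 768 genes were higher, and RIPK3 against BimS gave 403 genes in place of 810 and the interaction 109 in place of 217. That fit has no scaling for depth or composition, and its median over all genes was -0.12. Its counts of higher members were lower in several lists, with 9 of 16 for the lysosome, 3 of 6 for necroptosis, 3 of 5 for cytokine receptors, 3 of 5 for cholesterol synthesis, 1 of 5 for class I presentation and 1 of 3 for maturation. The paired fit raised RIPK3 against BimS to 1730 and the interaction to 449. Of the 343 named genes that were called, 242 were called in all 15 refits and none reversed. The paired fit lost 1 of them, Ppp1r14b, and gained 39. Fold changes of genes with few counts, such as Slc40a1 and Cxcl5, are limited by counting error. DESeq2 and filterByExpr left the BimS and interaction counts within 1.5 times (782 and 804, 305 and 232).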
